A study of Homo sapiens with 4 samples.

Results

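The N-glycan biosynthesis enzymes were taken as the 49 of 39261 genes in the deposited tables whose pathway annotation lists the whole term N-Glycan biosynthesis. No gene of the tables carries the term for various types of N-glycan biosynthesis. By their known roles 19 members build the lipid-linked sugar precursor, 7 are subunits of oligosaccharyltransferase, 8 trim glucose or mannose in the endoplasmic reticulum (ER) and Golgi, and 15 branch, fucosylate or cap the glycan in the Golgi. RNA sequencing covered 4 cultures of human breast cancer cell lines, with 1 library per group. MDA-MB-231, a mesenchymal-like triple-negative line kept in L15 with fetal bovine serum, received a knockdown construct against TMEM126A or a control vector (sh-NC in the design text). MCF10-Ca1a (Ca1a), a tumour-forming line descended from MCF10A mammary epithelium, was kept in DMEM/F12 with horse serum, insulin, EGF, cholera toxin and hydrocortisone. It received TMEM126A overexpression or a control vector (pCDH in the design text). All constructs were delivered by lentivirus, cells were at passages 10 to 15, and the sources used here do not say whether each line is a clone or a pool.

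With 1 library per group no difference has a replicate check and no test between conditions was possible. Ratios carry 95% intervals of read counting alone, which do not include variation between cultures. Libraries held 20673373 to 21405193 reads in genes. TMEM126A, which encodes a mitochondrial inner membrane protein, had 22.9 normalized counts in the knockdown library, against 559 in its control. It had 9381 counts in the overexpression library, against 265 in its control. The line markers followed the labels for VIM and ZEB1 in MDA-MB-231 (708 to 721 and 8.07 to 8.31 FPKM) and for CDH1, EPCAM, KRT17 and KRT5 in Ca1a (at least 73.4 FPKM). The mesenchymal markers CDH2 and SPARC were under 1 FPKM in all 4 libraries, and the immune, endothelial and fibroblast markers PTPRC, PECAM1, COL1A1 and DCN reached at most 1.79 FPKM. PECAM1 was at 0.734 FPKM in the knockdown library, against 0.4 FPKM in its control, and at 1.36 FPKM in the overexpression library, against 0.865 FPKM in its control. In Ca1a VIM was at 74.8 FPKM in the overexpression library, against 90.5 FPKM in its control, and KRT5 at 439.8 FPKM, against 335 FPKM. These marker ratios exceed those of most pathway members, and their part in the results was not tested.

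N-glycans are sugar trees attached to asparagine residues of secreted and membrane proteins. Enzymes of the ALG family assemble a branched sugar on the lipid dolichol, first on the cytosolic and then on the lumenal face of the ER membrane. Oligosaccharyltransferase moves the finished tree onto the growing protein, glucosidases and mannosidases trim it, and Golgi transferases rebuild it into branched structures that end in galactose and sialic acid. In carcinoma cells branching by MGAT5 and core fucosylation by FUT8 are known for their effects on adhesion and growth factor receptors.

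The pathway was transcribed in both lines, with different enzymes prominent at several steps. In the control vector libraries 43 of 49 members reached 1 FPKM (a read level per unit of transcript length and of depth) in MDA-MB-231 and 42 of 49 in Ca1a. Members together held 0.538% of reads in the MDA-MB-231 control and 0.37% in the Ca1a control. Members of at least 1 FPKM had a median of 20.9 FPKM in the MDA-MB-231 control and 13.0 FPKM in the Ca1a control, against medians of 9.0 and 8.65 FPKM over protein-coding genes of at least 1 FPKM. Across the 42 members with a mean of at least 1 FPKM, log2 levels in the controls correlated with a Pearson r of 0.87 and a Spearman rho of 0.89. The same values over the 11363 genes tested were 0.61 and 0.72. These are correlations across genes of 2 libraries, and genes are not independent replicates.

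Levels were set side by side as log2(FPKM + 0.1) over genes with a mean of at least 1 FPKM, and a gene at least 2-fold apart was called. By this rule 10 of 42 members tested (23.8%) were higher in the MDA-MB-231 control and 2 (4.76%) were lower, beside 24.4% of all genes tested higher and 12.9% lower. The share of members called higher was near that of all genes. The median log2 ratio of members was 0.57, beside 0.28 over all genes tested. After division by the median ratio of all genes 6 members were higher and 3 lower, with a median of 0.29. The shares of all genes were then 18.6% higher and 17.6% lower, both above those of members. The lines differ in medium as well as origin, so line and medium cannot be told apart.

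**Figure D1:**
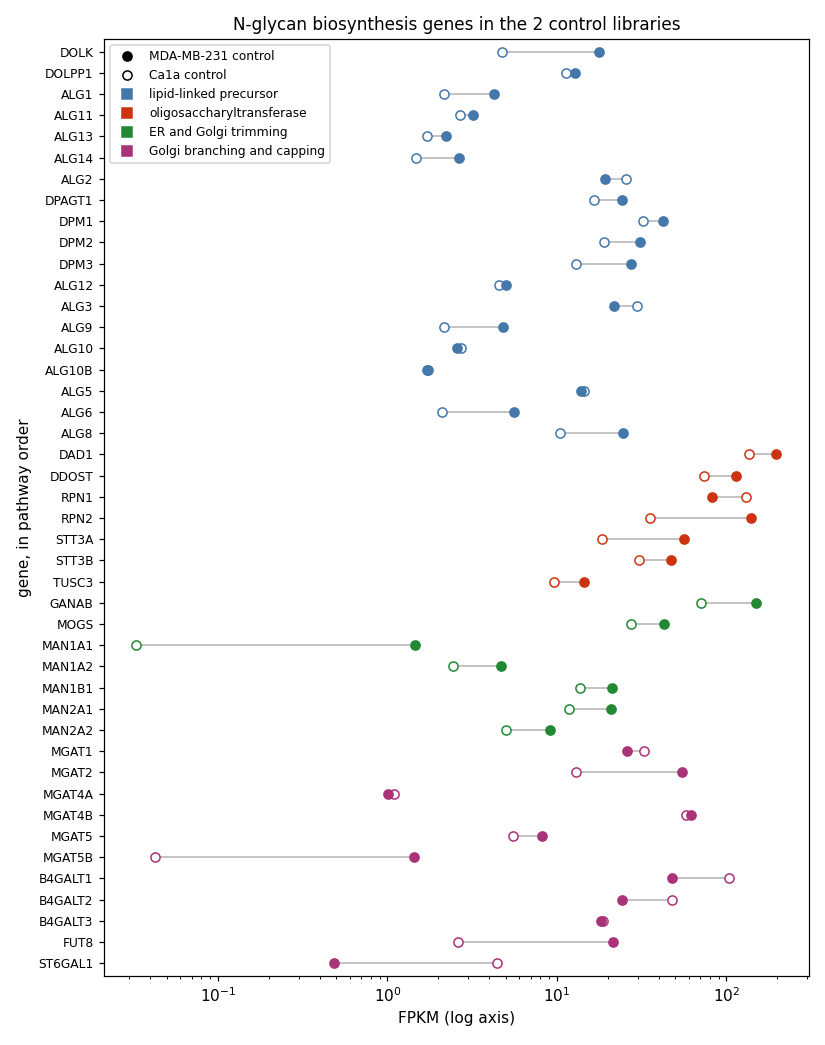
FPKM of the pathway members above 0.01 FPKM in both control vector libraries (log axis), with filled points for MDA-MB-231 and open points for Ca1a, coloured by step and 1 library per point. FUT8 (21.5 against 2.61 FPKM) and RPN2 (139 against 35.4 FPKM) lie far to the right in MDA-MB-231, and ST6GAL1 (0.484 against 4.43 FPKM) lies to the left.

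Of 19 precursor genes 5 were called higher in the MDA-MB-231 control, near the 24.4% of all genes, and 0 lower, beside 12.9%. The 5 were DOLK, ALG6, ALG8, ALG9 and DPM3. After division by the median ratio of all genes ALG8, ALG9 and DPM3 were no longer called. All 19 members exceeded 1 FPKM in both controls, from 1.72 FPKM for ALG10B to 42.3 FPKM for DPM1 in MDA-MB-231 and from 1.47 FPKM for ALG14 to 32.2 FPKM for DPM1 in Ca1a. DPM1 is the catalytic subunit of dolichol phosphate mannose synthase, which supplies the lumenal mannoses. DOLK, the kinase that makes dolichol phosphate, stood at 17.7 FPKM in the MDA-MB-231 control and 4.72 FPKM in the Ca1a control, which is 3.75-fold higher. ALG6 and ALG8, which add the first and second glucose, were 2.64-fold and 2.38-fold higher in MDA-MB-231. ALG5, which makes the glucose donor for these steps, was at 13.8 FPKM in the MDA-MB-231 control and 14.5 FPKM in the Ca1a control. ALG9, a lumenal mannosyltransferase, was 2.24-fold higher and DPM3, the small subunit that tethers DPM1, 2.12-fold higher.

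Oligosaccharyltransferase subunits were the most abundant step, with a sum of 651 FPKM in the MDA-MB-231 control and 435 FPKM in the Ca1a control. DAD1, a small subunit, was the highest member in both, at 197 FPKM in MDA-MB-231 and 135 FPKM in Ca1a. The catalytic subunits were in opposite order. STT3A, which acts on chains entering the ER, stood at 56.2 FPKM in the MDA-MB-231 control and 18.4 FPKM in the Ca1a control, a 3.05-fold difference. STT3B, which also acts on sites that STT3A skips, stood at 46.9 FPKM and 30.4 FPKM in the same libraries. STT3A therefore made up 54.5% of their summed FPKM in the MDA-MB-231 control and 37.7% in the Ca1a control, with 54.9% in the knockdown and 37.5% in the overexpression library.

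The ribophorin genes RPN1 and RPN2, whose products sit in the same complex, were also in opposite order. RPN2 stood at 139 FPKM in the MDA-MB-231 control and 35.4 FPKM in the Ca1a control, a 3.92-fold difference. RPN1 went the other way, at 82.7 FPKM in the MDA-MB-231 control and 131 FPKM in the Ca1a control. RPN1 thus held 37.3% of the pair's FPKM in the MDA-MB-231 control and 78.8% in the Ca1a control, and the treated libraries held 39.3% and 78.1%. RPN2 shares exon bases with MROH8 on the opposite strand and STT3A with CHEK1 on the same strand, so reads of these genes may be split or dropped. MAGT1, the counterpart of TUSC3 in STT3B complexes, does not carry the pathway term. It stood at 33.3 FPKM in the MDA-MB-231 control and 11.4 FPKM in the Ca1a control, beside 14.4 and 9.68 FPKM for TUSC3.

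**Figure D2:**
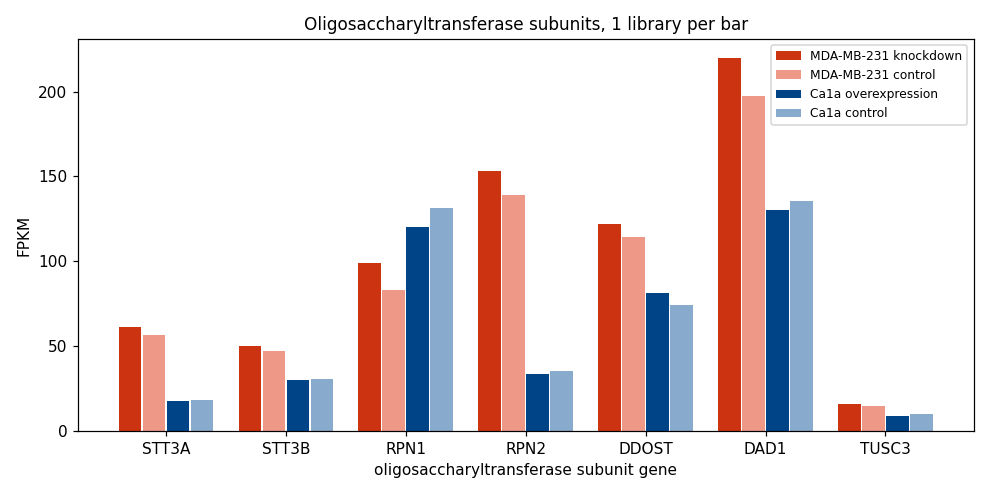
FPKM of the 7 oligosaccharyltransferase subunit genes of the pathway term in the 4 libraries, 1 library per bar. RPN2 exceeds RPN1 in both MDA-MB-231 libraries (153 against 99.0 FPKM in the knockdown library), and RPN1 exceeds RPN2 in both Ca1a libraries (120.2 against 33.8 FPKM in the overexpression library).

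Among trimming genes 1 of 6 tested, GANAB, was called higher in the MDA-MB-231 control, beside 24.4% of all genes, and 0 lower, beside 12.9%. All 6 had a ratio above 1, beside 60.5% of all genes tested, and their median log2 ratio was 0.84, beside 0.28. GANAB, the catalytic subunit of ER glucosidase II, stood at 149 FPKM in the MDA-MB-231 control and 70.9 FPKM in the Ca1a control, a 2.10-fold difference. It was no longer called after division by the median ratio of all genes. The Golgi mannosidase genes MAN2A1 and MAN2A2 made up 69.6% and 30.4% of their summed FPKM in the MDA-MB-231 control, and 70.0% and 30.0% in the Ca1a control. MAN1A1, a Golgi mannosidase of the preceding step, lay below the mean of 1 FPKM required. It was at 1.46 FPKM in the MDA-MB-231 control and 0.033 FPKM, from 5 reads, in the Ca1a control. Its relative MAN1A2 was at 4.68 FPKM in the MDA-MB-231 control and 2.43 FPKM in the Ca1a control. MAN1C1 was at 0.198 FPKM in the MDA-MB-231 control and had 0 reads in the Ca1a control, which allows up to 3.

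Among Golgi branching and capping genes with a mean of at least 1 FPKM the largest ratios between the lines, in either direction, were those of ST6GAL1, FUT8 and MGAT2. FUT8, which adds the core fucose, stood at 21.5 FPKM in the MDA-MB-231 control and 2.61 FPKM in the Ca1a control, an 8.22-fold difference. MGAT2, which starts the second branch, stood at 55.0 FPKM and 13.0 FPKM in the same libraries, a 4.22-fold difference. ST6GAL1, which adds terminal sialic acid, stood at 0.484 FPKM in the MDA-MB-231 control and 4.43 FPKM in the Ca1a control and was 9.16-fold lower in MDA-MB-231.

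B4GALT1, the main galactosyltransferase of N-glycans, was 2.19-fold lower in the MDA-MB-231 control, at 47.4 FPKM against 104 FPKM in the Ca1a control. B4GALT2 was 1.97-fold lower and B4GALT3 was at 18.2 FPKM against 18.8 FPKM. MGAT4B made up 98.4% of the FPKM of MGAT4A and MGAT4B in the MDA-MB-231 control and 98.1% in the Ca1a control. MGAT5, which makes the tumour-associated branch, was at 8.17 FPKM in the MDA-MB-231 control and 5.48 FPKM in the Ca1a control. Its relative MGAT5B was at 1.44 FPKM in the MDA-MB-231 control and 0.0427 FPKM, from 7 reads, in the Ca1a control. MGAT3, the bisecting enzyme, had 2 reads in each MDA-MB-231 library and 0, which allows up to 3, in each Ca1a library. MGAT4C, MGAT4D and ST6GAL2 had at most 5 reads in any library.

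The first comparison within a line set the TMEM126A knockdown library against its control in MDA-MB-231. In the knockdown library 22 of the 45 pathway members tested were higher by more than counting error, beside 16.8% of all genes tested. None was higher by as much as 1.5-fold, and all 7 oligosaccharyltransferase subunits were among the 22. Scaled by total reads, 15 members were higher by this measure, beside 11.9% of all genes. A gene was tested when its libraries averaged 20 or more normalized counts, and was called when it was at least 1.2-fold apart on log2(normalized count + 1) and its interval left out 1. By this rule 6 of 45 members tested were higher, beside 5.31% of all 13292 genes tested, and 0 were lower, beside 3.38%. The 6 were ALG1, ALG5, ALG6, ALG12, RPN1 and MAN1A1. At 2-fold 0 members were called, beside 0.391% of all genes. MGAT3, MGAT4C, MGAT4D and ST6GAL2 were too low to be tested.

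By the interval alone, 22 of 45 members were higher, 0 were lower and 23 lay within counting error, beside 16.8% of all genes higher and 11.3% lower. Intervals narrow with abundance. Among genes that averaged 1000 or more normalized counts, a limit added after the data were seen, 16 of 28 members were higher and 0 lower, beside 25.3% and 16.2% of all such genes. The median log2 ratio of the 45 members was 0.09, beside 0.01 over all genes tested, and 35 of 45 members had a ratio above 1, beside 53.9% of all genes. A ratio in a bulk library cannot tell a change in every cell from a change in the share of cells.

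**Figure D3:**
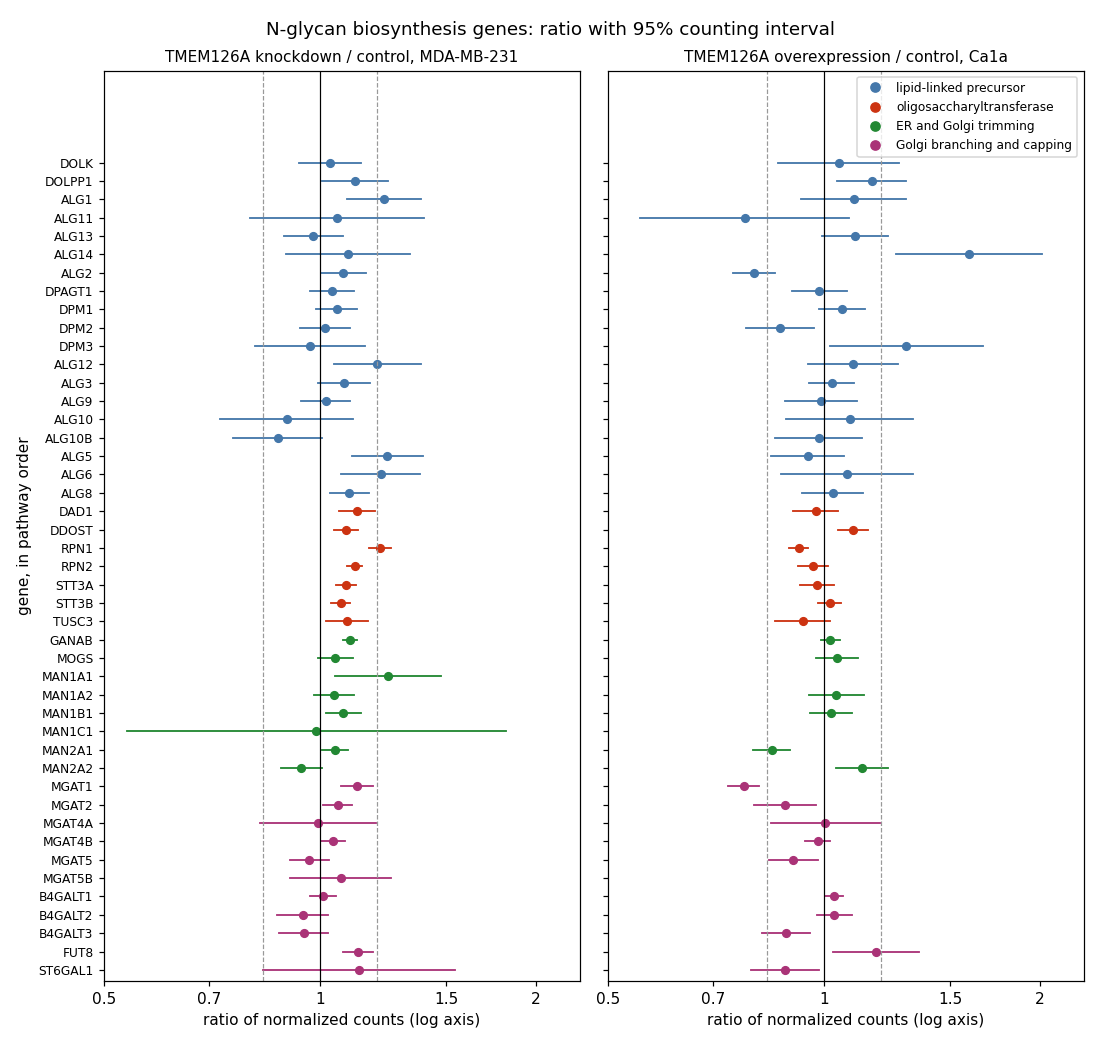
Ratio of normalized counts with its 95% counting interval (log axis) for each member tested, in pathway order, for the knockdown over control in MDA-MB-231 (left) and the overexpression over control in Ca1a (right), 1 library per group. Dashed lines mark 1.2-fold; the 7 oligosaccharyltransferase subunits all lie above 1 on the left, while on the right ALG14 is highest at 1.59 and MGAT1 has the lowest ratio whose interval leaves out 1, at 0.773.

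Precursor genes had a median log2 ratio of 0.08, and 7 of 19 were higher by the interval, beside 16.8% of all genes, the remaining 12 being within it. With scaling by total reads 5 of 19 were higher and 1 lower by the interval, beside 11.9% and 16.7% of all genes. ALG5, the dolichol phosphate glucose synthase gene, had 679 normalized counts in the knockdown library, against 547 in the control, which is 1.24-fold higher (1.11 to 1.39). ALG6, whose enzyme uses that glucose, had 547 counts in the knockdown library, against 449.8 in the control, which is 1.22-fold higher (1.07 to 1.38). ALG8, the next glucosyltransferase gene, was 1.10-fold higher (1.03 to 1.17). The genes for the last glucose behaved otherwise: ALG10 had a ratio of 0.898 (0.725 to 1.11) and ALG10B of 0.873 (0.757 to 1.01), both within counting error. ALG10 and ALG10B are near-identical, so their reads may be split or dropped.

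ALG1, which adds the first mannose on the cytosolic side, had 627 counts in the knockdown library, against 511 in the control, which is 1.23-fold higher (1.09 to 1.38). ALG2, the next mannosyltransferase gene, was 1.08-fold higher, with a lower bound just above 1. ALG13 and ALG14, which together add the second GlcNAc, had ratios of 0.979 (0.89 to 1.08) and 1.09 (0.897 to 1.34). DPAGT1, which starts the chain and is the target of tunicamycin, had a ratio of 1.04 (0.967 to 1.11). DOLPP1, a phosphatase that recycles the dolichol carrier, was 1.12-fold higher (1.01 to 1.24). The 3 dolichol phosphate mannose synthase genes all lay within counting error, from 0.969 for DPM3 to 1.06 for DPM1.

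ALG12, a lumenal mannosyltransferase gene, had 453 counts in the knockdown library, against 377 in the control, which is 1.201-fold higher (1.05 to 1.38) and no longer called with a pseudocount of 5. It lies on chromosome 22 from 49900229 to 49918458 on the minus strand of GRCh38, head to head with CRELD2, an ER stress-responsive gene. CRELD2, which is no member and was looked up because of this position, had 631 counts in the knockdown library, against 439.7 in the control, and was 1.44-fold higher (1.27 to 1.62). The annotated genes share 292 bases at their starts, so some reads of either may be counted for the other or dropped.

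The stretch between the RefSeq starts of ALG12 and CRELD2 is shown because it is the single member promoter that held the ER stress response element, which is CCAAT, 9 bases of any kind and CCACG. It is chr22:49918439-49918633 of GRCh38.p14, read 5′ to 3′ on the minus strand, with CCAAT boxes (CCAAT, or ATTGG on the other strand) and the fixed letters of the element in capitals.
ALG12: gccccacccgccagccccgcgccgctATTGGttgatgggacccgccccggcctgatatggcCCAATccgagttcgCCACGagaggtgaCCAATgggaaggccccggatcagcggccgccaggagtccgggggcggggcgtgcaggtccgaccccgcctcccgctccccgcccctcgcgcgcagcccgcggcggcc
The element ran from base -134 to base -116 relative to the ALG12 start. Windows of 250 bases before the start were searched on both strands in the 41 of 49 members with a RefSeq entry (GRCh38.p14) and in all 27305 genes with one. Some windows, such as that of ALG1, lie inside the gene as GENCODE places it. The element was in 1 of 41 member promoters and in 0.0806% of all promoters. Its second form, ATTGG, 1 base of any kind and CCACG, was in 0 of 41 and 0.0513% of all, and TGACGTGG, a site bound by XBP1 and ATF6, was in 0 of 41 and 0.667% of all. CCAAT, which is also contained in the element, was in 17 of 41 member promoters (41.5%) and 33.0% of all. A match is a description of the letters and says nothing about binding.

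Oligosaccharyltransferase genes had a median log2 ratio of 0.12, and 7 of 7 were higher beyond counting error, where 16.8% of all genes were. Among all genes that averaged 1000 or more normalized counts the share was 25.3%. RPN1 had 6420.2 normalized counts in the knockdown library, against 5299 in the control, which is 1.21-fold higher (1.17 to 1.26). DAD1 had 2475 counts in the knockdown library, against 2197 in the control, and was 1.13-fold higher (1.06 to 1.19). RPN2 was 1.12-fold higher (1.09 to 1.14), DDOST, which stabilises the complex, 1.09-fold higher (1.04 to 1.13) and TUSC3, an oxidoreductase subunit, 1.09-fold higher (1.02 to 1.17). Of the catalytic subunits STT3A was 1.09-fold higher (1.05 to 1.12) and STT3B, the subunit with the smallest ratio, 1.07-fold higher (1.04 to 1.10). Scaled by total reads, all 7 ratios stayed above 1. By the interval 6 of 7 were then higher, beside 11.9% of all genes, TUSC3 being the exception. Of the subunits without the pathway term, MAGT1 was 1.17-fold higher (1.11 to 1.22) and OSTC 1.19-fold higher (1.12 to 1.26). OST4, a very small subunit, had a ratio of 0.973 (0.896 to 1.06), TMEM258 of 1.01 (0.902 to 1.12) and KRTCAP2 of 1.07 (0.97 to 1.18).

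Because these subunit genes were higher together, 4 of their promoters are shown, each 250 bases before the RefSeq start on the gene's strand, 5′ to 3′, with CCAAT boxes of either strand in capitals. They are DDOST at chr1:20661370-20661619 (minus strand), DAD1 at chr14:22589225-22589474 (minus strand), STT3A at chr11:125592602-125592851 (plus strand) and RPN2 at chr20:37179080-37179329 (plus strand), all GRCh38.p14.
DDOST: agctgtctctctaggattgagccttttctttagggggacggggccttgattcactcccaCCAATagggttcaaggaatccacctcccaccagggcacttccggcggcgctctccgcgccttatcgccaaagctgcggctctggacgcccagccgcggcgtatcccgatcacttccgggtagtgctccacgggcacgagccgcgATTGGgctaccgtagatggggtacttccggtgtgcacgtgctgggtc
DAD1: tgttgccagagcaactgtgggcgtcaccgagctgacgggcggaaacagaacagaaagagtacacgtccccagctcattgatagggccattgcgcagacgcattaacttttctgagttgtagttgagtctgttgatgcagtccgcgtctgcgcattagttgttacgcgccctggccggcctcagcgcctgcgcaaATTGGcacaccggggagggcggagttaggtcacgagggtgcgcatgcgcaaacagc
STT3A: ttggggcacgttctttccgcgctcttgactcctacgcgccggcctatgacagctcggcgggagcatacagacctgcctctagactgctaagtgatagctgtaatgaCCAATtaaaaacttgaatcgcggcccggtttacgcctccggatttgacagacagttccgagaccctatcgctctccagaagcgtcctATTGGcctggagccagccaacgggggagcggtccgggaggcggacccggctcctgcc
RPN2: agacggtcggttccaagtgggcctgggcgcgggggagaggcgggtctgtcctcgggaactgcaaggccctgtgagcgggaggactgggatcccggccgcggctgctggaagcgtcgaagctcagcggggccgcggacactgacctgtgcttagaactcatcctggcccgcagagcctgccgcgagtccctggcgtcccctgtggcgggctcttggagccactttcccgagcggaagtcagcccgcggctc
DDOST and STT3A each held 2 CCAAT boxes, DAD1 held 1 and RPN2 held none in this window. In GENCODE the RPN2 gene starts at 37178410 and STT3A at 125591712, so both windows lie inside the annotated genes. Sequence before these outermost starts was not searched. The GENCODE starts of DDOST (20661544) and DAD1 (22589269) lie within their windows. DDOST and STT3A, with boxes at bases -47 to -43 and -57 to -53, were each 1.09-fold higher, and RPN2, without a box in its window, was 1.12-fold higher. DAD1, with its box at bases -56 to -52, had the largest ratio of the genes shown. Whether boxes go with the ratios was not tested. RPN1, STT3B, TUSC3, MOGS, MAN1A2, MGAT4A, ALG10 and MGAT3 had no promoter entry.

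Trimming genes had a median log2 ratio of 0.07, and 4 of 8 were higher by the interval, beside 16.8% of all genes, the remaining 4 being within it. With scaling by total reads 2 of 8 were higher and 1 lower by the interval, beside 11.9% and 16.7% of all genes. GANAB had 17990.5 normalized counts in the knockdown library, against 16341 in the control, which is 1.10-fold higher (1.08 to 1.12). MOGS, which encodes glucosidase I and removes the outermost glucose, had a ratio of 1.05 (0.995 to 1.11). MAN1A1 had 309 counts in the knockdown library, against 249 in the control, which is 1.24-fold higher (1.05 to 1.48). MAN1B1, which trims mannose in the early secretory pathway, was 1.08-fold higher (1.02 to 1.14). MAN2A1 was 1.05-fold higher on an interval that just left out 1, while MAN2A2 had a ratio of 0.942, just within counting error.

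Golgi branching and capping genes had the lowest median log2 ratio of the steps, 0.06. By the interval 4 of 11 tested were higher, beside 16.8% of all genes, and the remaining 7 were within it. With scaling by total reads 2 of 11 were higher and 0 lower by the interval, beside 11.9% and 16.7% of all genes. MGAT1, the enzyme that opens the hybrid and complex pathway, had 3114 counts in the knockdown library, against 2764 in the control, which is 1.13-fold higher (1.07 to 1.19). FUT8 had 3550.01 counts in the knockdown library, against 3141 in the control, also 1.13-fold higher (1.08 to 1.19). MGAT2 was 1.06-fold higher (1.01 to 1.11), whereas MGAT5 had a ratio of 0.966 (0.907 to 1.03). The galactosyltransferase genes lay within counting error, from 0.945 for B4GALT2 to 1.01 for B4GALT1. ST6GAL1, with 93.4 counts in the knockdown library and 82.5 in the control, had a ratio of 1.13 (0.833 to 1.54).

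Scaling by total reads instead of the authors' size factors left 2 members called higher, ALG5 and MAN1A1, and 0 lower, and turned the split of all genes to 4.14% higher and 4.52% lower. By the interval alone this scaling, combined with it after the data were seen, gave 15 members higher and 2 lower (ALG10B and MAN2A2), beside 11.9% and 16.7% of all genes. FPKM, which has no counting interval, gave 2 higher at 1.2-fold, ALG1 and ALG6, beside 5.97% of all genes. It gave 0 lower, beside 5.11%. No member was called both with FPKM and with scaling by total reads. The authors' deposited table gave 0 of 48 members an adjusted p-value (DESeq, 1 library against 1) under 0.05, where 50 of 21619 genes had one, and the smallest member value was 0.942, for RPN1.

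**Figure D4:**
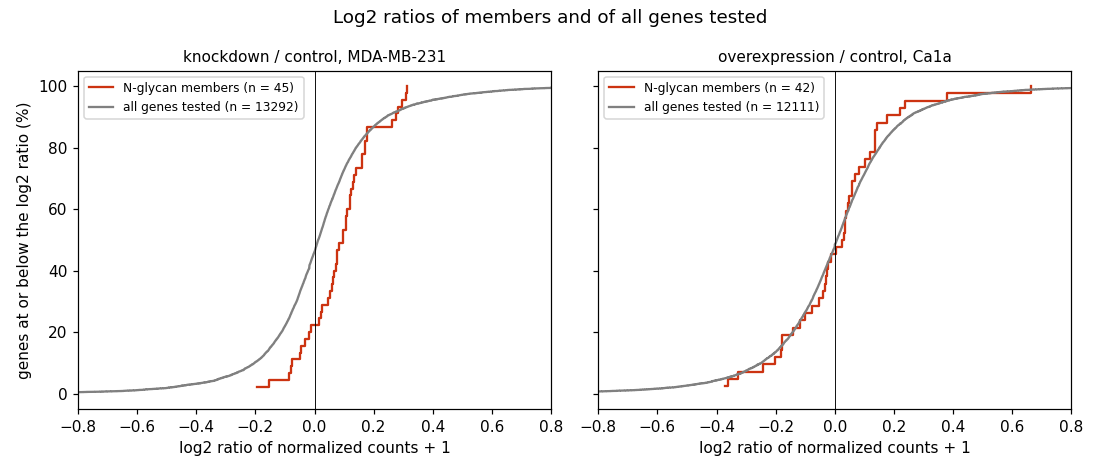
Cumulative share of genes (%) by log2 ratio of normalized counts + 1, for pathway members (red) and for all genes tested (grey), in the knockdown (left, 45 members) and the overexpression comparison (right, 42 members). The member curve lies to the right of the curve of all genes over most of its range in the knockdown comparison (medians 0.09 and 0.01) and near it in the overexpression comparison (medians 0.03 and 0.01).

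The second comparison set the TMEM126A overexpression library against its control in Ca1a. Members differed in both directions: ALG14 and DPM3 were higher, and MGAT1 and ALG2 were lower. By the rule at 1.2-fold 2 of 42 members tested were higher, beside 5.74% of all 12111 genes tested, and 2 were lower, beside 5.92%. These shares were near those of all genes. By the interval alone 7 members were higher and 9 lower, beside 18.1% and 16.2% of all genes, and 26 lay within counting error. Members had a median log2 ratio of 0.03, beside 0.01 over all genes. Among genes that averaged 1000 or more counts 3 of 22 members were higher and 6 lower, beside 26.2% and 23.7% of all such genes. At 2-fold 0 members were called, beside 0.545% of all genes. MAN1A1, MAN1C1 and MGAT5B were too low to be tested here, in addition to the 4 members left out in MDA-MB-231.

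In the precursor steps ALG14, the membrane anchor of the second GlcNAc transfer, had 194 counts in the overexpression library, against 122 in the control, which is 1.59-fold higher (1.26 to 2.01). This was the largest ratio of any tested member in either comparison. Its catalytic partner ALG13 had a ratio of 1.10 (0.993 to 1.23). DPM3 had 155 counts in the overexpression library, against 119 in the control, which is 1.30-fold higher (1.02 to 1.67), while DPM2 was 1.15-fold lower (1.03 to 1.29) and DPM1 had a ratio of 1.06 (0.983 to 1.14). ALG2 had 1558 counts in the overexpression library, against 1953 in the control, which is 1.25-fold lower (1.17 to 1.34). ALG11, which adds the following mannoses, had 66 counts in the overexpression library, against 85 in the control, a ratio of 0.776 (0.554 to 1.08) within counting error. It shares exon bases with UTP14C. DOLPP1 was 1.17-fold higher (1.04 to 1.30). The genes called in MDA-MB-231 were not called here: ALG1 had a ratio of 1.10 (0.93 to 1.30), ALG5 of 0.948 (0.844 to 1.07), ALG6 of 1.07 (0.87 to 1.33) and ALG12 of 1.10 (0.951 to 1.27). These differences between the lines were not tested.

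For oligosaccharyltransferase genes the median log2 ratio was -0.04. By the interval 1 of 7, DDOST, was higher, beside 18.1% of all genes, and 1, RPN1, was lower, beside 16.2%. These shares were near those of all genes, and the other 5 subunits were within the interval. RPN1 had 7922 counts in the overexpression library, against 8592 in the control, which is 1.08-fold lower (1.05 to 1.12). DDOST had 3597 counts in the overexpression library, against 3277 in the control, which is 1.10-fold higher (1.05 to 1.15). The other subunits lay between 0.933 for TUSC3 and 1.02 for STT3B. Among subunits without the term OST4 was 1.23-fold higher (1.12 to 1.36), at 922 counts in the overexpression library, against 747 in the control. Of the trimming genes MAN2A1 had 2105 counts in the overexpression library, against 2492 in the control, and was 1.18-fold lower (1.12 to 1.26), while MAN2A2 was 1.13-fold higher (1.04 to 1.23). MAN2A1 therefore made up 63.4% of the summed FPKM of both under overexpression, against 70.0% in the control.

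Among Golgi branching and capping genes 5 of 10 tested were lower in the overexpression library by the interval, beside 16.2% of all genes. Another 2 were higher, near the 18.1% of all genes, 3 were within it, and the median log2 ratio was -0.09. MGAT1 had 2795 counts in the overexpression library, against 3616 in the control, which is 1.29-fold lower (1.23 to 1.36). It lies on chromosome 5 from 180784782 to 180815652 on the minus strand of GRCh38. MGAT2 was 1.13-fold lower (1.03 to 1.25) and MGAT5 1.10-fold lower (1.02 to 1.19), so the lower group held the first and second branching steps and the MGAT5 branch. MGAT4A and MGAT4B had ratios of 1.004 (0.842 to 1.197) and 0.98 (0.942 to 1.02). Among capping genes B4GALT3 was 1.13-fold lower (1.05 to 1.22) and ST6GAL1 1.13-fold lower (1.02 to 1.26). FUT8 was higher here too, at 459 counts in the overexpression library, against 389 in the control, a ratio of 1.18 (1.03 to 1.35), and B4GALT1 was 1.03-fold higher on an interval that just left out 1. The authors' deposited table gave 0 of 45 members an adjusted p-value under 0.05, where 24 of 18801 genes had one, and the smallest member value was 0.823, for MGAT1.

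The knockdown and overexpression comparisons share no library. Of the 42 members tested in both, 5 were higher in the knockdown library and lower in the overexpression library by the interval alone, namely RPN1, ALG2, MGAT1, MGAT2 and MAN2A1, which is 11.9% of members beside 3.37% of the 11349 genes tested in both. DDOST, DOLPP1 and FUT8 were higher in both, 7.14% of members beside 4.32% of all genes. Of the members 0 were lower in the knockdown library and higher in the overexpression library, beside 2.14% of all genes, or lower in both, beside 2.79%. Intervals narrow with abundance, and shares called in both comparisons were not counted among abundant genes alone. Whether members exceed genes of like abundance was therefore not tested. Scaled by total reads, ALG2, MGAT2, MAN2A1 and DOLPP1 were no longer higher in the knockdown library by the interval. The shares of all genes called in both were not recounted under this scaling. MAN2A2 was then lower in the knockdown library and higher in the overexpression library. At 1.2-fold no member was called in both comparisons.

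Genes around the pathway were listed by function. In the lectin cycle, in which calnexin and calreticulin hold newly glycosylated proteins, 7 of 14 were higher in the knockdown library by the interval alone and 0 lower, beside 16.8% and 11.3% of all genes. CALR, the calreticulin gene, had 50296 normalized counts in the knockdown library, against 39269 in the control, which is 1.28-fold higher (1.26 to 1.30). CANX, the calnexin gene, was 1.18-fold higher (1.16 to 1.197) and PDIA3, a disulfide isomerase that works with both, 1.19-fold higher (1.15 to 1.23). In the overexpression library 3 of these 14 were higher and 2 lower, near the 18.1% and 16.2% of all genes. CALR had a ratio of 1.11 (1.07 to 1.15) there, and EDEM2, which marks misfolded glycoproteins for disposal, was 1.23-fold lower (1.11 to 1.37).

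UDP-GlcNAc is the donor for the first sugar and the branches. Of the 4 genes of its synthesis tested in Ca1a, 3 were lower in the overexpression library than in its control by the interval alone, beside 16.2% of all genes, and 0 were called at 1.2-fold. GNPNAT1, the remaining gene, lay within counting error. GFPT1, the rate-limiting enzyme of the hexosamine pathway, had 5280 counts in the overexpression library, against 6321 in the control, and was 1.197-fold lower (1.15 to 1.24). PGM3 was 1.14-fold lower (1.07 to 1.23) and UAP1 1.13-fold lower (1.08 to 1.18). In MDA-MB-231 GFPT1 had 2621 counts in the knockdown library, against 3308 in the control, and was 1.26-fold lower (1.199 to 1.33). Its relative GFPT2 was 1.24-fold higher (1.15 to 1.33) there, and the other 3 genes lay within counting error. GFPT2 stood at 10.5 FPKM in the MDA-MB-231 control and 0.0498 FPKM, from 6 reads, in the Ca1a control.

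The remaining lists are counted by the interval alone, for which the shares of all genes were 16.8% higher and 11.3% lower in the knockdown comparison and 18.1% and 16.2% in the overexpression comparison. Among genes of GDP-mannose synthesis 2 of 5 were higher and 0 lower in the knockdown library, and 1 higher and 1 lower in the overexpression library. PMM2, a phosphomannomutase gene, was 1.14-fold higher (1.04 to 1.25) in the knockdown library. Its ratio in the overexpression library was 1.16 (1.07 to 1.25). Of 3 dolichol supply genes SRD5A3, which acts in the last steps of dolichol synthesis, had a ratio of 1.19 (1.01 to 1.40) in the knockdown comparison and was 1.22-fold lower (1.03 to 1.45) under overexpression, and the others lay within counting error. Other sugar nucleotide genes were higher for 2 and lower for 1 of 11 in the knockdown library, with 0 of 11 beyond counting error in the overexpression library. None of the 4 Golgi sugar nucleotide transporter genes left counting error in the knockdown library, and 1 was higher and 1 lower in the overexpression library. In lysosomal N-glycan degradation 2 of 9 were higher and 0 lower in the knockdown library, and 3 of 9 higher and 0 lower in the overexpression library. FUCA1, a lysosomal fucosidase gene, was 1.41-fold higher (1.05 to 1.91) in the overexpression library.

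Sialyl- and galactosyltransferase genes outside the pathway term gave 3 of 7 higher and 1 lower in the knockdown library. ST8SIA4, a polysialyltransferase gene, had 499.9 counts in the knockdown library and 393 in the control, and was 1.27-fold higher (1.11 to 1.45), with 0 reads in both Ca1a libraries. ST3GAL4 was 1.22-fold higher (1.12 to 1.33), whereas B4GALT6 had a ratio of 0.835 (0.752 to 0.928), below 1. In the overexpression library 2 of 5 were higher and 1 lower, the last being ST3GAL3, 1.35-fold lower (1.09 to 1.67).

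Beyond the term that defined them, 27 of 49 members carry the gene ontology term ER membrane and 19 of 49 the term Golgi membrane in the deposited annotation. All 49 were placed in GENCODE release 29 on GRCh38, on 18 chromosomes, with 8 on chromosome 1, 6 on chromosome 9 and 5 on chromosome 11. In all 10 members share exon bases with another protein-coding gene, among them ALG1, ALG12, B4GALT3, MGAT4B, RPN2 and STT3A. Without these 10, 4 of 35 members tested were called higher and 0 lower in the knockdown comparison, beside 5.31% and 3.38% of all genes, with a median log2 ratio of 0.09. Of 32 tested under overexpression 2 were then higher and 2 lower, beside 5.74% and 5.92% of all genes. These counts without overlapping genes were added after the data were seen.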

How the data were processed

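Deposited tables of 39261 genes were used. The Ca1a table holds whole-number counts of reads per gene in each library, per the file headers a DESeq base mean. The MDA-MB-231 table holds a signal deposited by the authors, namely such counts over a size factor. All of its values are integer multiples of the lowest non-zero entry (tolerance 1e-06), and these multiples were taken as reads. FPKM of all 4 libraries were deposited by the authors; their denominator is unknown here. The log2 fold changes and p-values in the authors' deposited tables were copied, not recomputed. The submitters' processing notes name the builds GRCh38.p5 and hg38 and the tools HISAT2, Cufflinks, HTSeq and DESeq without roles, and the strand setting is unknown.

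Intervals of ratios are exact (Clopper-Pearson, from the conditional binomial) at 95% and cover counting error only, since reads without molecular identifiers are not independent molecules. A count of 0 allows up to 3 reads. Log2 ratios used a pseudocount of 1, and printed folds used none. Steps were assigned to members by hand. The rule for named genes took TMEM126A, all members, and of each further list at most 6 genes with the largest ratios; CRELD2 was added after its position was seen. The members and lists were chosen with earlier results of these data known. Alternatives were FPKM, pseudocounts, filters, fold thresholds, scalings (TMM from edgeR 4.0.16, total reads, median ratio) and the mean in place of the median. Promoters came from RefSeq on GRCh38.p14 and gene positions from GENCODE. Python 3.11.15 (numpy 2.4.6, pandas 2.3.3, scipy 1.17.1), matplotlib 3.10.9 and R 4.3.3 were used.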

Additional observations from a re-analysis of the deposited data

How the results depend on the processing

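No paired analysis was possible because each group held 1 library and the labels give no replicate numbers. For the same reason no library could be left out. The 6 members called higher under knockdown became 2 with FPKM (ALG1 and ALG6) and 2 with scaling by total reads (ALG5 and MAN1A1). They became 0 at 1.5-fold, 0 at 2-fold and 22 with the interval alone. Members called higher numbered 15 with the interval alone and scaling by total reads, and 1 with a mean of at least 1000. They were 4 to 6 under the other alternatives run, and members called lower numbered 0 throughout, except 2 with the interval alone and scaling by total reads. In the overexpression comparison the 2 higher and 2 lower members became 1 and 0 at 1.5-fold, 0 and 0 at 2-fold, 7 and 9 with the interval alone, and 6 and 9 with scaling by total reads added to that. With a mean of at least 1000 they became 0 and 2, and the median log2 ratio turned to -0.026. With FPKM 4 members were lower. Between the control libraries the 10 higher and 2 lower members became 20 and 4 at 1.5-fold, 5 and 1 at 3-fold, and 8 and 1 with a mean of at least 5 FPKM. After division by the median ratio of all genes 6 were higher and the median log2 ratio was 0.29, all genes having shifted by 0.28. Thresholds and filters change the counts by construction. So does scaling, which multiplies every ratio of a comparison by the same factor and moves genes near a threshold across it. For FPKM the cause was not tested. Of the values of single members 269 of the knockdown comparison stayed inside their counting interval and 1 moved, and 250 stayed and 2 moved in the overexpression comparison. These values include the pseudocount settings, which barely alter members with many counts. A value inside its interval can still lose its call, as when 22 members higher by the interval alone became 15 under scaling by total reads. No called member changed sign. Members with under 100 counts, such as ST6GAL1 in MDA-MB-231 and ALG11 in Ca1a, are limited by depth.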
